A study of Mus musculus with 4 samples.

Results

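The regions described here were the chromatin peaks of mouse inguinal white adipose tissue that were open in all 12 annotated cell clusters at similar levels. For each cluster the nuclei of all mice were pooled, and the level of a peak was its number of entries scaled to 1000000 entries of the cluster (CPM), where 1 entry means that a nucleus had a read in the peak. A peak was a member when its level was at least 20 CPM in all 12 clusters and its highest level was under 4 times its lowest. This gave 4482 of 189598 peaks, or 2.36% of the peaks, and they held 20.8% of all 65588856 entries. A further 81 peaks reached 20 CPM in all 12 clusters but were less even, 41215 reached it in 1 to 11 clusters, and 143820 reached it in none. Since the levels by cluster chose the members, those levels are given as a description without a test.

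The study profiled 32552 single nuclei by snATAC-seq, in which a transposase cuts accessible DNA and barcodes tag each nucleus, from 21 male C57BL/6 mice aged 8 weeks. It asked how the tissue's chromatin responds to stimuli that induce beige adipocytes. The 7 groups held 3 mice each. Untreated mice were kept at 22 °C (day0RT), and others in the cold at 6.5 °C for 1, 3 or 7 days (day1C, day3C, day7C). The rest were given CL-316,243, an agonist of the β3-adrenergic receptor, at 22 °C. They received 1 mg/kg for 1, 3 or 7 days (day1CL, day3CL, day7CL). The labels listed 4 sequencing lanes, each holding all mice, so mouse, group and cluster were taken from the deposited annotation of each nucleus.

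Each mouse contributed 1111 to 2021 nuclei and 1340376 to 6916698 entries. The marker check gave mixed results. The start of Adipoq was highest in white adipocytes, Ucp1 in beige adipocytes, Csf1r in macrophages and Flt1 in VEC (vascular endothelial cells). The VEC label was only partly borne out, since the starts of the endothelial markers Cdh5 and Pecam1 were highest in B cells (39.4 CPM) and Cd4 T cells (73.4 CPM), and that of the adipocyte marker Pparg was highest in VEC (66.8 CPM). The starts checked did not bear out the label of the VSMC cluster (vascular smooth muscle cells). Acta2 was at 3.91 CPM there, its lowest value in any cluster, but it was highest in B cells (35.3 CPM). Myh11 and Tagln were highest in APC2, the second cluster of adipocyte progenitor cells. The study named Mylk4, Myh4, Myog, Myf5 and Myod1 as more accessible in the VSMC cluster, and these were not checked here. Without that cluster the rule gave 4609 peaks, among them all 4482 members. Of the 28031 barcode strings, 4218 occurred in more than 1 mouse. All 4824 pairs of nuclei sharing a string came from the same treatment and mouse number on different days, and none from day 0. Of the pairs, 21.5% lay in the same cluster, against 20.7% of any 2 nuclei.

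Promoters are the stretches of DNA at gene starts where general transcription factors and RNA polymerase II assemble. In mammals the promoters of genes that every cell uses often lie in CpG islands, which are rich in CG dinucleotides and bind broadly expressed activators such as ETS proteins, NRF1, SP and KLF proteins, NFY and YY1. Cell-type-specific accessibility is more often found at enhancers away from gene starts, where factors such as AP-1, PU.1, RUNX and C/EBP bind. Genes for tRNAs are read by RNA polymerase III, whose promoter elements lie inside the transcribed sequence.

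The sequences below show the kinds of element that recurred among the members. For each motif the member with the highest lowest-cluster level that held the motif within 50 bases of a start was taken, leaving aside members already shown. All are from the RefSeq copy of GRCm38.p6, the assembly behind the authors' mm10 coordinates. The first 5 run 5′ to 3′ on the strand of the gene, 50 bases either side of the start, with the motif in capitals. Stub1 encodes a ubiquitin ligase that works with chaperones and shows the ETS motif CCGGAAG 8 bases upstream of the start, at chr17:25832897-25832997 on the minus strand. Dapk3, a kinase gene, shows the NRF1 motif CGCATGCGC 6 bases downstream, on the opposite strand, at chr10:81182955-81183055 on the plus strand. Fbxl19, a gene for an F-box protein that binds CpG-rich DNA, shows the YY1 motif AAGATGGCG on the opposite strand over the start itself, at chr7:127745720-127745820 on the plus strand. Rpl27a, a ribosomal protein gene, shows the ZBTB33 motif CTCGCGAGA 30 bases downstream, at chr7:109519097-109519197 on the plus strand. Hipk3, a kinase gene, shows the SP/KLF motif GGGCGGG 27 bases downstream, at chr2:104493904-104494004 on the minus strand.
Stub1: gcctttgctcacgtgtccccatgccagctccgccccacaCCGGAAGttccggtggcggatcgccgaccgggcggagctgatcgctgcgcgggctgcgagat
Dapk3: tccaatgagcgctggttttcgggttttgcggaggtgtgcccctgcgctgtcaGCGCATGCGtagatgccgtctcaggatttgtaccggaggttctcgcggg
Fbxl19: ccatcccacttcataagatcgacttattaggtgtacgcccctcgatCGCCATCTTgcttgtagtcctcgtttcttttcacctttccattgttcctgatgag
Rpl27a: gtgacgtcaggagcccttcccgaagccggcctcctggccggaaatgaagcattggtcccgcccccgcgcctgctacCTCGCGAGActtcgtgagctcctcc
Hipk3: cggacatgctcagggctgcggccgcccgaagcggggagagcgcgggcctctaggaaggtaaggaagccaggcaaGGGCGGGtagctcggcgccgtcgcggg

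The remaining 3 sequences show arrangements other than a single start. Dbi, which encodes the acyl-CoA binding protein, and 3110009E18Rik start 109 bases apart and point away from each other at chr1:120121058-120121207, shown on the plus strand with the bases from one start to the other in capitals. The gene n-TPagg2 for a proline tRNA, at chr1:165641614-165641725 on the plus strand, lay in the member with the highest lowest-cluster level away from coding gene starts, and its 72 bases are in capitals. The gene n-TLcag9 for a leucine tRNA, at chr1:171101818-171101940 on the minus strand, lay in a member that rose with both treatments in white adipocytes, and its 83 bases are in capitals.
Dbi and 3110009E18Rik: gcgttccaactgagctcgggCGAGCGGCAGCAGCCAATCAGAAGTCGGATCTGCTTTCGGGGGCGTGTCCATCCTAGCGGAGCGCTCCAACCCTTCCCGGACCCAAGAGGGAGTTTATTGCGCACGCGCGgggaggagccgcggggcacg
n-TPagg2: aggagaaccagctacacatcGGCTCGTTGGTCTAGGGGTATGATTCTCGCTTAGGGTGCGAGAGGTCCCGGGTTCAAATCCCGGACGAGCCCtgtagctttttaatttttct
n-TLcag9: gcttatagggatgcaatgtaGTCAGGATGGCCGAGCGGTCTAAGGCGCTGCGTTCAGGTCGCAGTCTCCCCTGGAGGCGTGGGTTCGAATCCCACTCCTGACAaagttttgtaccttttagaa

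The members were almost all promoters of protein-coding genes. Of the 4482, 4166 (92.9%) lay within 1000 bases of the start of a protein-coding transcript, against 20847 of all 189598 peaks, and 4107 (91.6%) covered such a start, against 7.25% of all peaks. Starts of any annotated transcript, non-coding ones included, were within 1000 bases of 96.0% of the members. The middle of the start-covering members lay a median of 15 bases downstream of the start, with an interquartile range from 61 bases upstream to 119 bases downstream. By the middle of the peak, 52.9% lay in an exon, 17.6% in an intron and 29.4% between genes, whereas 48.4% of all peaks were intronic. The X chromosome held 64 members, or 1.43%, against 2.20% of all peaks.

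In sequence the members stood apart from other start-covering peaks as well as from peaks at large. Their median width was 1245 bases, against 393 bases for all peaks and 874 bases for the 9641 other peaks that covered a start. The median GC content was 59.2%, against 47.5% for all peaks and 57.7% for the other start-covering peaks. The ratio of observed to expected CG dinucleotides, which is low across most of the genome, had a median of 0.763 in the members and 0.212 in all peaks. Limited to peaks that covered a start, it was 0.767 in members and 0.608 in the others. A CpG-island-like composition (ratio above 0.6 and GC above 50%) was found in 84.4% of the members and 6.02% of all peaks, and in 87.3% of start-covering members against 49.3% of the other start-covering peaks. A wide peak collects more reads than a narrow one, and peaks were called in each cluster by the authors and merged, so that width and level are not independent.

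Pairs of genes that start close together and point apart, as Dbi and 3110009E18Rik do in the sequence above, were held by 569 members (12.7%), against 0.546% of all peaks. The median distance between the paired starts was 113 bases. Among peaks that covered a start the shares were 13.8% of the members and 3.37% of the others. After the Dbi pair, the pairs with the highest lowest-cluster levels were Ewsr1 and Rhbdd3 (49.2 CPM), Exd1 and Chp1 (49.1 CPM), Slc5a6 and Atraid (48.5 CPM), and Emc6 and Tax1bp3 (48.3 CPM). The Emc6 and Tax1bp3 starts were 46 bases apart, and their peak varied from 48.3 to 64.9 CPM over the 12 clusters, a ratio of 1.35.

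Sorting all peaks by the number of clusters in which they reached 20 CPM gave a gradual change in closeness to a coding start rather than a step at 12. The share within 1000 bases of a coding start was 5.73% at 0 clusters, 17.6% at 3, 48.4% at 6, 79.3% at 9 and 92.8% at 12. Some other traits rose more sharply at the end. Pairs of starts pointing apart were held by 7.10% of peaks at 11 clusters and 12.5% at 12, and the YY1 motif by 3.99% and 6.86%. The median CpG ratio was 0.197 at 0 clusters and 0.763 at 12, and the median width was 338 and 1246 bases. Peaks holding the ETS motif made up 2.61% at 0 clusters and 27.6% at 12, while those holding the AP-1 motif TGANTCA made up 18.2% and 5.35%. The 4563 peaks at 12 clusters include the 81 less even ones.

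**Figure D1:**
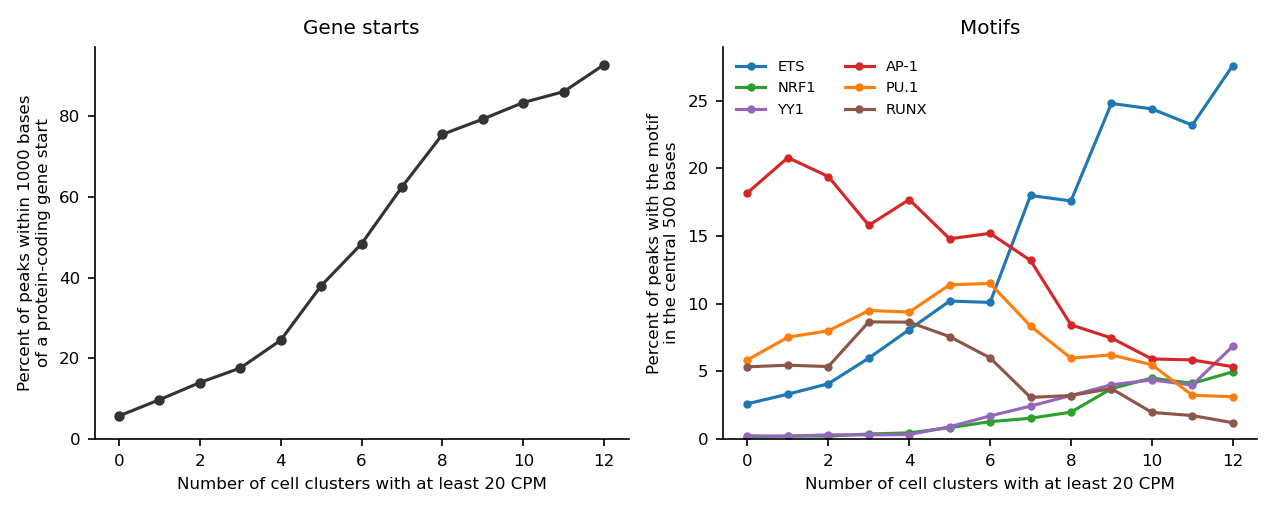
Peaks grouped by the number of cell clusters (horizontal axis, 0 to 12) in which they reached 20 CPM. The left panel gives the percent of peaks within 1000 bases of a protein-coding gene start, which goes from 5.73% to 92.8%. The right panel gives the percent with each motif in the central 500 bases, where ETS, NRF1 and YY1 are highest at 12 clusters and AP-1, PU.1 and RUNX are lowest there.

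Motifs were counted as exact letter matches on either strand in the central 500 bases, centred on the middle of each peak. This window runs past the ends of peaks narrower than 500 bases, and the median width of all peaks was 393 bases. The ETS motif CCGGAAG was in 1248 members (27.8%), against 3.97% of all peaks and 13.3% of the other start-covering peaks. The SP/KLF motif GGGCGGG was in 2813 members (62.8%), against 8.68% of all peaks and 44.8% of the other start-covering peaks. The NFY motif CCAATC was in 25.7%, against 15.1% of all peaks and 18.4% of the other start-covering peaks. Of these 3 motifs, ETS differed most from the other start-covering peaks as a ratio, and SP/KLF in percentage points.

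Rarer motifs of the same class were also more frequent in the members. The NRF1 motif CGCATGCGC was in 223 members (4.98%), against 0.358% of all peaks and 1.98% of the other start-covering peaks. The YY1 motif AAGATGGCG was in 311 (6.94%), against 0.485% and 1.87%. The ZBTB33 motif CTCGCGAGA was in 113 (2.52%), against 0.096% and 0.519%. The CRE TGACGTCA, bound by CREB and ATF proteins, was in 187 members (4.17%), against 0.695% and 2.52%, and the USF E-box TCACGTGA was in 105 (2.34%), against 0.587% and 1.08%. The ZNF143 motif CTACAATTC was in 42 members (0.937%), against 0.280% of all peaks.

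Motifs of factors that mark cell types were less frequent in the central 500 bases of members than of all peaks, with 1 exception. AP-1 (TGANTCA) was in 236 members (5.27%), against 17.9% of all peaks. PU.1 (GAGGAAGT), a factor of myeloid and B cells, was in 3.08% of the members and 6.26% of all peaks, and RUNX (TGTGGTTT) in 1.20% and 5.34%. ESRR (TCAAGGTCA), for orphan nuclear receptors of oxidative tissues, was in 0.535% and 1.14%, and the PPAR-RXR consensus, for the receptors that drive adipocyte genes, in 4 members. The exception was C/EBP (TTGCGCAA), in 21 members (0.469%) against 0.179% of all peaks. The other start-covering peaks lay between members and all peaks for AP-1 (868 of 9641), PU.1 (4.90%), RUNX (2.34%) and ESRR (0.716%). Part of the difference from all peaks was thus shared by start-covering peaks that were not members. Over whole peaks, which are wider in members, the order of members and all peaks turned for PU.1 (8.21% and 6.44%) and ESRR (2.28% and 1.13%). AP-1 was at 17.3% in both. Among start-covering peaks, the whole-peak shares were higher in members than in the others. They were 17.0% and 15.9% for AP-1, 8.21% and 7.81% for PU.1, 4.58% and 4.07% for RUNX, and 2.26% and 1.39% for ESRR. The CTCF consensus was in 6.89% of the members and 7.72% of all peaks. Members have more GC and more CG dinucleotides than other peaks, and most letters that were more frequent in them are rich in these bases. What composition contributes to the motif shares was not tested.

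The promoter motifs also had preferred places relative to the start. Within 300 bases of the start, the ETS motif was in 32.5% of the 4107 start-covering members and 14.9% of the 9641 other peaks, and its busiest 25 bases were those just upstream of the start. The NRF1 and NFY motifs were busiest 75 to 50 bases upstream, with 79.4% and 81.1% of their matches upstream of the start. YY1 lay on the other side, with its busiest 25 bases just downstream of the start, a median of 22 bases downstream, and 72.7% of matches on the gene's own strand. In the other start-covering peaks the YY1 share was 2.14%, against 8.47% in the members, and 79.9% of matches were on the gene's strand. AP-1 had no such peak near the start of the members, with 28.7% of its matches within 100 bases.

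**Figure D2:**
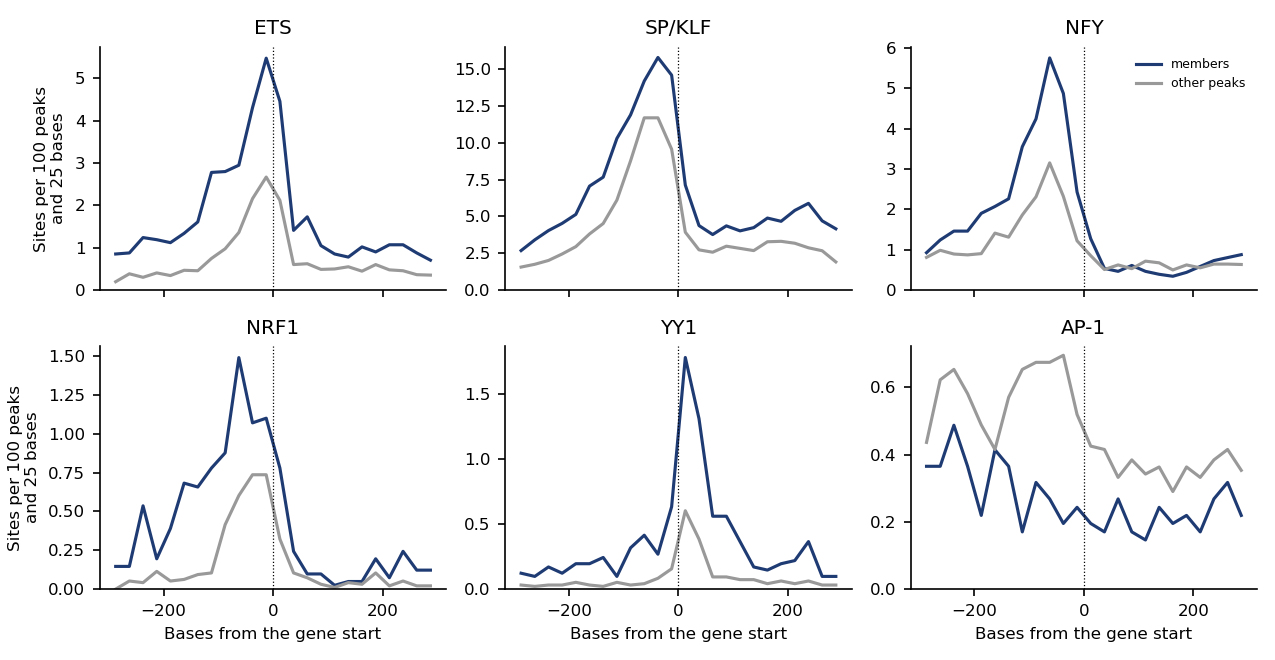
Sites per 100 peaks and 25 bases (vertical axes, which differ between panels and start at 0) against distance from the gene start in bases, for 4107 start-covering members (blue) and 9641 other start-covering peaks (gray). ETS, SP/KLF, NFY and NRF1 are densest upstream of or at the start and YY1 just downstream of it in both sets, with more sites in the members. AP-1 is less frequent in the members and has no maximum at the start there.

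The levels that chose the members were moderate and even. The lowest-cluster level had a median of 28.1 CPM (range 20.0 to 56.7), the highest-cluster level a median of 68.2 CPM, and their ratio a median of 2.35 (range 1.24 to 4.00). In the cluster with the fewest entries a member had a median of 28 entries (13 to 68), so that the lowest levels carry wide counting error. The 13 entries behind the lowest member in VEC gave an exact Poisson 95% interval of 11.3 to 36.2 CPM, which covers counting error only. The peaks nearest the thresholds show how fine they were: the peak nearest Mga (20.01 CPM), Tusc1 (20.02 CPM) and Kremen1 (20.04 CPM) were just inside, and Mgrn1 and Mrpl15 and the peak nearest Yy1, 34540 bases away, were just outside at a rounded 20.00 CPM. By ratio, Arhgef1 (3.999), Rasa2 (3.987) and Wasf2 (3.977) were just inside, and the peak nearest Gm10775 (4.011), Coro1c (4.022) and Cdc42ep3 (4.024) were just outside.

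Lymphocytes had the highest member levels in CPM and adipocytes the lowest. The median member was at 61.7 CPM in B cells, 59.6 in Cd4 T cells, 57.5 in T cells and 57.1 in Cd8 T cells. Dendritic cells (49.3), VEC (48.8), macrophages (48.6) and VSMC (45.7) lay between, followed by the progenitor clusters APC1 (39.5) and APC2 (37.7), beige adipocytes (31.8) and white adipocytes (30.5). The lowest of the 12 levels fell in white adipocytes for 2065 members (46.1%) and in beige adipocytes for 1140, and the highest fell in B cells for 1502 (33.5%) and in Cd4 T cells for 1015.

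The order turned over when nuclei were counted instead. A median of 12.5% of white adipocyte nuclei and 13.6% of beige adipocyte nuclei had an entry in a given member, against 8.13% of B cell nuclei and 7.14% of Cd4 T cell nuclei. On this scale 2281 members were highest in beige adipocytes, 1266 in VSMC and 485 in white adipocytes, and 1746 were lowest in Cd4 T cells. The median nucleus had 2561 entries in white adipocytes and 3087 in beige adipocytes, against 974 in B cells and 907 in Cd4 T cells. Because the matrix records at most 1 entry per peak and nucleus, a peak that is often open gains less from deeper sequencing than a rarely open one. The part this plays in the order of the clusters was not tested, and shares of entries by depth are given below.

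**Figure D3:**
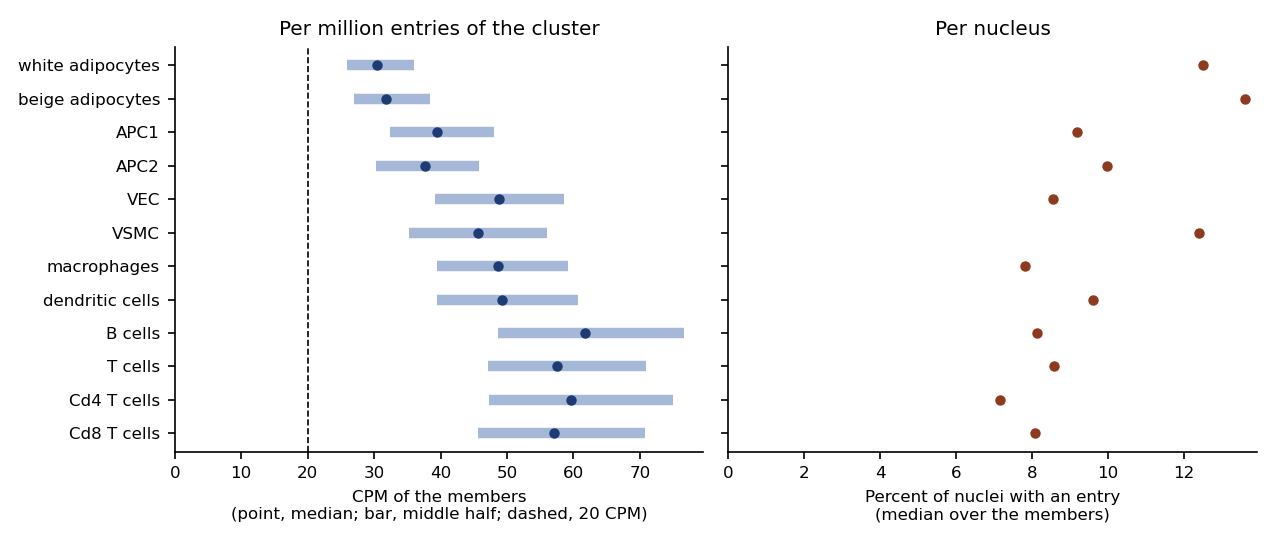
Levels of the 4482 members in each of the 12 clusters. The left panel gives CPM (point, median, with a bar over the interquartile range and a dashed line at 20 CPM), from a median of 30.5 in white adipocytes to 61.7 in B cells. The right panel gives the median percent of nuclei with an entry, from 7.14% in Cd4 T cells to 13.6% in beige adipocytes.

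The share of all entries that fell in members was similar from mouse to mouse within a cluster. It averaged 14.8% in white adipocytes (SD 1.17, n = 21 mice), 15.7% in beige adipocytes (SD 1.32, n = 19), 22.4% in macrophages (SD 1.14, n = 21) and 27.9% in B cells (SD 1.25, n = 21). The ranges over mice were 12.5% to 17.4% in white adipocytes and 25.3% to 30.5% in B cells and did not overlap. By depth, among nuclei with 500 to under 1000 entries, 15.8% of entries fell in members in white adipocytes and 28.5% in B cells, and among those with 2000 to under 4000 entries the shares were 15.1% and 28.2%. In the deepest nuclei, with 8000 entries or more, they were 13.3% and 24.6%.

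The 10 members with the highest lowest-cluster levels were 9 promoters and a tRNA gene peak. Fbxl19, whose start is shown above with its YY1 motif, lay at chr7:127744924-127746451 and led them. It was at 56.7 CPM in white adipocytes, 60.6 in beige adipocytes, 81.0 in APC1, 99.6 in APC2, 91.2 in VEC, 82.2 in VSMC, 100 in macrophages, 101 in dendritic cells, 66.8 in B cells, 70.9 in T cells, 69.4 in Cd4 T cells and 65.1 in Cd8 T cells. APC2, macrophages and dendritic cells were thus at the upper end and adipocytes and lymphocytes at the lower.

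Stub1 (chr17:25832407-25833680) was at 55.7 CPM in beige adipocytes and 95.2 CPM in VSMC, and at 57.2 to 75.6 CPM in the other 10 clusters. Kmt2b, which encodes a histone H3K4 methyltransferase, was at 55.7 CPM in white adipocytes and 88.1 CPM in dendritic cells. The others were Hipk3 (54.4 to 106 CPM), Pnpla8, a phospholipase gene (54.4 to 81.8), Angel2 (53.1 to 82.8), Pex2, a peroxisome assembly gene (52.5 to 73.9), Kif1b, a kinesin gene (52.4 to 88.7), Vcl, which encodes vinculin of cell adhesions (52.1 to 97.7), and the n-TPagg2 peak (54.6 to 88.4). The lowest level was in white or beige adipocytes for 8 of these 10, and in dendritic cells for Kif1b and Cd8 T cells for Vcl.

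The 45 members with at least 50 entries in every cluster allow a closer look at evenness. The flattest were Kif1b (ratio 1.69), Klf10 (49.3 to 84.7 CPM, ratio 1.72), Rock2 (49.2 to 85.6 CPM, ratio 1.74), Pik3r1 (46.0 to 81.4 CPM, ratio 1.77) and Fbxl19 (ratio 1.78). Klf10 encodes a zinc-finger factor, Rock2 a protein kinase and Pik3r1 a regulatory subunit of PI3-kinase. Pik3r1 was unlike most members in being lowest in APC1.

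Genes of the protein synthesis and degradation machinery often had a member at their start. Of 21842 protein-coding genes 4802 (22.0%) did, or 33.0% of those with any peak at the start. Among genes for cytosolic ribosomal proteins 67 of 85 (78.8%) did, led by Rps21 (46.3 CPM in its lowest cluster), Rpl27a (42.2 CPM) and Rpl15 (41.6 CPM). Among cytosolic tRNA synthetases, which charge tRNAs with amino acids, 15 of 20 did, led by Yars (42.1 CPM), Mars (41.7 CPM) and Lars (38.7 CPM). The 5 without one were Cars (17.3 CPM in its lowest cluster), Farsa (15.5), Hars (19.5), Rars (16.8) and Vars (16.7). Among proteasome subunits, which form the protease that degrades ubiquitin-tagged proteins, 27 of 39 (69.2%) did, led by Psma1 (40.4 CPM), Psma3 (39.5 CPM) and Psmd4 (34.9 CPM).

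Energy and transcription genes followed. For the respiratory chain and ATP synthase the count was 61 of 102 (59.8%), led by Ndufa11 (42.8 CPM), Ndufa4 (41.1 CPM) and Atp5f1 (41.0 CPM). General transcription factors had 24 of 40, led by Gtf2f1 (37.3 CPM), Taf4b (36.3 CPM) and Gtf2e1 (35.7 CPM). Mediator, which links activators to RNA polymerase II, had 18 of 30, led by Med16 (40.5 CPM), Med22 (36.2 CPM) and Med26 (35.5 CPM). RNA polymerase II itself had 6 of 13 (46.2%), with Polr2i at 45.1 CPM, Polr2b at 33.3 CPM and Polr2e at 25.5 CPM.

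Splicing factors had 25 of 47 (53.2%), led by Srsf7 (41.9 CPM), and translation initiation factors 26 of 55 (47.3%), led by Eif4a2 (43.7 CPM). V-ATPase and vesicle coat genes had 14 of 31 (45.2%), led by Copz1 (38.0 CPM), and mitochondrial ribosomal proteins had 34 of 77 (44.2%), led by Mrpl48 (48.1 CPM). Chaperones had 10 of 29 (34.5%), or 62.5% of those with any peak at the start, led by Cct3 (38.0 CPM). Of 16 genes commonly used as references, 7 had a member, among them Gapdh (35.8 CPM), B2m (31.6 CPM) and Rplp0 (31.4 CPM).

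The remaining lists ranged widely. The replication-dependent histone genes, which lie in clusters of near-identical copies, had 13 of 67 (19.4%), below the share of all protein-coding genes, led by Hist3h2a (32.5 CPM). Immediate early genes, which respond to stimuli within minutes, had 7 of 20 (35.0%), with Btg2 at 34.9 CPM, Klf2 at 28.8 CPM and Fos at 26.1 CPM in the lowest cluster. Klf2 was close to the limit of evenness, with 114 CPM in its highest cluster and a ratio of 3.95. Of 21 genes for the factors whose promoter motifs were counted, 9 (42.9%) had a member, led by Usf2 (41.0 CPM), Yy1 (38.1 CPM) and Nfyb (35.8 CPM). None of 30 lineage marker genes did, although 29 had a peak at the start.

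Away from coding gene starts, tRNA genes were far more frequent among members than among other peaks. Of 280 members more than 2000 bases from a protein-coding start, 47 (16.8%) held a tRNA gene, against 0.0928% of all peaks at that distance. A further 21 (7.50%) lay at the start of another short RNA gene, 67 (23.9%) at the start of a long non-coding RNA, pseudogene or other gene, and 23 (8.21%) at a non-coding transcript of a coding gene. With no annotated start nearby, 13 members held the CTCF consensus and 109 did not. A CpG-island-like composition was found in 45.4% of the 280, against 0.953% of all peaks at that distance. The grouping by short RNA genes was chosen after values were seen.

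The distal members with the highest lowest-cluster levels showed the same mix. The n-TPagg2 peak, printed above, was at 54.6 CPM in its lowest cluster and lay 6650 bases from the start of Mpzl1. The next were a peak with n-THgtg3 (histidine tRNA; 51.2 CPM), a peak without a tRNA gene nearest Ctdsp1 and Mir26b (50.6 CPM), a peak with n-TDgtc15 (aspartate tRNA; 48.0 CPM) and a peak with n-TLcag5 (leucine tRNA; 47.1 CPM). Each of the 4 tRNA peaks held 2 tRNA genes. The 47 distal tRNA members were also the most even of these kinds, with a median ratio of 2.04.

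Over the genome, 403 tRNA genes were annotated and 229 lay in a peak. Members held 95 of them in 65 peaks, peaks open in 1 to 11 clusters held 54, and peaks below 20 CPM everywhere held 80. tRNA genes occur in near-identical copies, and the authors kept only alignments of high mapping quality, which leaves out reads that could come from several copies. The part this plays in which tRNA genes had a peak was not tested.

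Whether cold or CL-316,243 changed the members was tested in white adipocytes, B cells and macrophages, the clusters in which all 21 mice had at least 10 nuclei. Entries were summed per mouse and tested with edgeR's quasi-likelihood test with Benjamini-Hochberg adjustment over all peaks tested, comparing the mean of the 3 days of a treatment with day 0. These contrasts were not used to choose the members. Counts of called members with a mouse left out or under other settings are given without the share of all peaks called there. Both treatments are set against the same 3 untreated mice, so that their results are not independent of each other. In white adipocytes all 4482 members passed the filter on low counts, as did 28059 other peaks. Levels of single mice, and statements on overlap, use CPM over the mouse's total entries, while the log2 fold changes also use edgeR's TMM scaling factors. In white adipocytes these factors were 1.00 to 1.01 in day 0 mice and 0.915 to 1.59 in treated mice.

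In white adipocytes 6 members passed in the cold. Of 32541 peaks tested, 0.246% were called higher and 0.375% lower, and of the members 3 (0.0669%) were higher and 3 (0.0669%) lower. The peak with n-TLcag9, shown above, lies 10435 bases from the start of Cfap126 and holds 4 tRNA genes. It was at 31.0, 23.6 and 32.2 CPM in the 3 day 0 mice and had a lowest, median and highest value of 43.7, 45.9 and 62.2 CPM in the 9 cold mice. All 9 cold mice were above all day 0 mice (log2 fold change 0.76, SE 0.19, edgeR quasi-likelihood adjusted p = 0.0264).

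Tkt, which encodes transketolase of the pentose phosphate pathway, was at 40.7, 44.3 and 45.8 CPM at day 0 and at 55.6, 65.1 and 87.3 CPM (lowest, median, highest) in the cold. The groups did not overlap (log2 fold change 0.63, SE 0.17, edgeR adjusted p = 0.0421). Inpp1, an inositol phosphatase gene, was at 21.3, 14.8 and 18.5 CPM at day 0 and 16.1, 36.0 and 39.7 CPM in the cold, with overlap (log2 fold change 0.87, SE 0.24, edgeR adjusted p = 0.0471).

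The members that fell in the cold were Sun1, Lig3 and Pprc1. Sun1, a nuclear envelope protein gene, was at 85.3, 65.0 and 41.9 CPM at day 0, with a wide spread, and at 24.3, 32.2 and 44.9 CPM in the cold, so that the groups overlapped (log2 fold change -0.80, SE 0.17, edgeR adjusted p = 0.00553). Lig3, a DNA ligase gene, was at 42.6, 44.3 and 46.8 CPM at day 0 and 20.7, 23.6 and 32.3 CPM in the cold, and all 9 cold mice were below day 0 (log2 fold change -0.78, SE 0.19, edgeR adjusted p = 0.0202). Pprc1, a coactivator gene related to PGC-1, was at 64.0, 38.4 and 50.7 CPM at day 0 and 22.9, 32.7 and 40.3 CPM in the cold, with overlap (log2 fold change -0.64, SE 0.18, edgeR adjusted p = 0.0473). The count of 6 became 1 without the second or the third day 0 mouse, 2 or 3 without any of 8 other mice, and 0 with no filter or with DESeq2.

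More members passed with CL-316,243, and most of those were lower. Of all peaks tested in white adipocytes 1.67% were called higher and 1.74% lower, against 9 members (0.201%) higher and 58 members (1.29%) lower. The shares of members called were below those of all peaks in both directions. Leaving out the first, the second or the third day 0 mouse gave 14, 32 and 35 calls among the members. Leaving out mouse 3 of day1CL gave 30 and mouse 1 of day7CL 41, and no filter gave 5 and DESeq2 1. The share of all peaks called in these settings is not given, so these counts are no result about the members in particular.

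The 9 that rose were mostly short RNA gene peaks, and without mouse 3 of day1CL 0 members were called higher. They included 5 with a tRNA gene and 2 beside a snRNA gene, and 1 of the 9 lay within 1000 bases of a coding start. The n-TLcag9 peak had a lowest, median and highest value of 37.8, 53.3 and 74.9 CPM in the 9 CL mice, all above the day 0 values given above (log2 fold change 0.96, SE 0.19, edgeR adjusted p = 2.74e-04). A peak with the serine tRNA gene n-TSgct5, nearest Hist1h2bj at chr13:22050285-22051498, was at 11.6, 5.91 and 20.5 CPM at day 0 and at 21.9, 31.9 and 46.6 CPM with CL, without overlap (log2 fold change 1.23, SE 0.25, edgeR adjusted p = 5.72e-04). A peak with 4 tRNA genes nearest Olfr1423 was at 42.6, 20.7 and 30.2 CPM at day 0 and 22.6, 51.1 and 69.9 CPM with CL, with overlap (log2 fold change 0.85, SE 0.19, edgeR adjusted p = 0.00207). The other 2 with tRNA genes, nearest Zfp213 and Hist1h4h, had log2 fold changes of 0.93 and 0.65 and were named after their values were seen.

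The tRNA peaks as a group did not move together among the members. The 65 members with a tRNA gene had a median log2 fold change of 0.07 with CL (interquartile range -0.08 to 0.29). Of these 65, 38 were higher than day 0 and 5 passed. The median was -0.14 for the 4150 members within 1000 bases of a coding start that held no tRNA gene. Without mouse 3 of day1CL none of the tRNA members passed, without the second or the third day 0 mouse 3 and 2 did, and DESeq2 called 1. Of the 119 tRNA gene peaks that were not members, 65 passed the filter on low counts. Their median was 0.73 (0.29 to 1.37), and 23 were called higher and 0 lower, where 1.67% and 1.74% of all peaks were. A low peak can pass that filter through the groups in which it is high, so these 65 are not a like comparison for the members, all of which passed. Their calls were not recounted without single mice. The tRNA members took a median of 0.234% of white adipocyte entries at day 0 (0.233% to 0.272%), 0.245% in the cold (0.220% to 0.309%) and 0.256% with CL (0.199% to 0.308%), ranges that overlap.

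**Figure D4:**
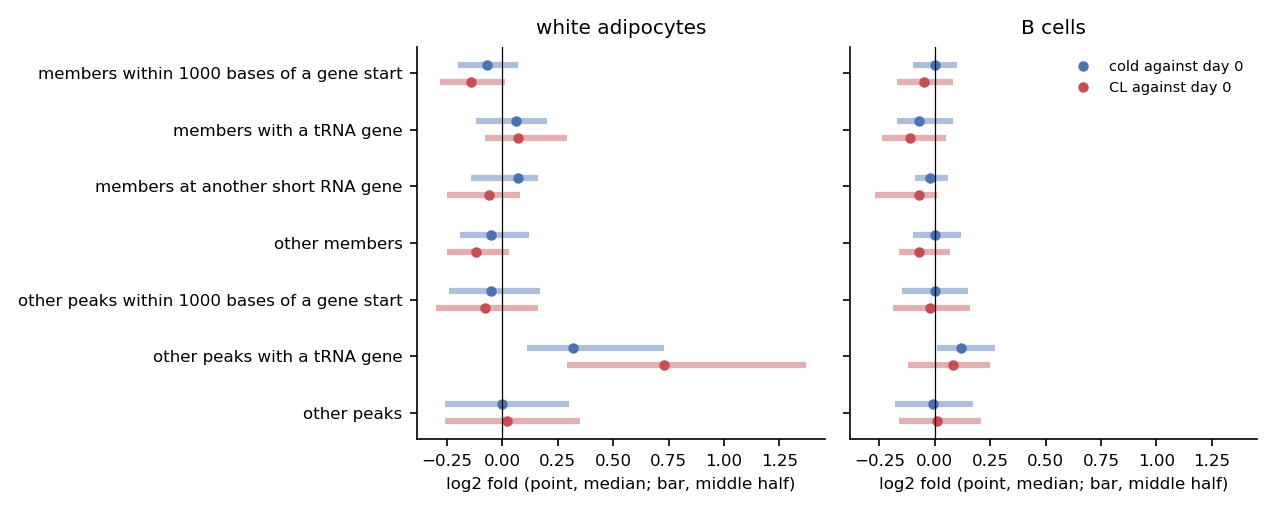
Log2 fold change against day 0 (horizontal axis) in white adipocytes and B cells, for members and other peaks grouped by the kind of gene they hold or lie near (points, medians, with bars over the interquartile range). In white adipocytes the members near a coding start had a median of -0.14 with CL, the tRNA members 0.07 and the other tRNA gene peaks that passed the filter 0.73. In B cells the medians lay between -0.11 and 0.12.

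Of the 58 members that fell with CL in white adipocytes, 55 lay within 1000 bases of a coding start, and the log2 fold changes of the 58 had a median of -0.68. Tmem120a, a gene for an envelope membrane protein of adipocytes, was at 116, 100 and 77.0 CPM at day 0 and 42.9, 55.0 and 78.3 CPM with CL. Only the upper end of the CL range reached the day 0 values (log2 fold change -0.75, SE 0.14, edgeR adjusted p = 2.03e-04). Rnf4, a SUMO-targeted ubiquitin ligase gene, was at 83.3, 79.7 and 66.3 CPM at day 0 and 36.2, 45.8 and 90.5 CPM with CL, with overlap (log2 fold change -0.69, SE 0.15, edgeR adjusted p = 0.00199). Hnrnpm, a gene for an RNA-binding splicing regulator, was at 54.3, 47.2 and 46.8 CPM at day 0 and 0, 28.0 and 35.6 CPM with CL, all lower (log2 fold change -0.82, SE 0.19, edgeR adjusted p = 0.00271). The value of 0 came from mouse 1 of day1CL, with 23 white adipocyte nuclei and 44198 entries.

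Among the other 55, the following were chosen after their values were seen. Irs2, which encodes an insulin receptor substrate, had a log2 fold change of -0.69 (edgeR adjusted p = 0.00468). The corepressor genes Tle3 and Ncor1 were at -0.88 and -0.64 (edgeR adjusted p = 0.00477 and 0.0315), and Sik2, a kinase gene regulated by cAMP signalling, was at -0.55 (edgeR adjusted p = 0.0219). Sun1, Lig3 and Pprc1, which fell in the cold, fell with CL too (-0.67, -0.73 and -0.57).

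By family few members were called with CL. Of 68 member peaks at cytosolic ribosomal protein genes 57 were lower than day 0 (median log2 fold change -0.17), and 1, Rpl23, passed at -0.73. At proteasome genes 24 of 28 were lower (median -0.19) and none passed, and at splicing genes 22 of 26 were lower (median -0.27) and none passed. Mediator had Med18 at -0.81 and the tRNA synthetases had Tars at -0.63 as their single calls. RNA polymerase II had Polr2m at -0.72 and the replication-dependent histones had Hist1h2an at -0.77 as theirs. At respiratory chain and ATP synthase genes 36 of 62 were lower (median -0.03) and none passed. These counts are to be read beside the 3242 of all 4482 members that were lower with CL, with a median of -0.14, against a median of -0.04 over all 32541 peaks. Without scaling beyond the total entries the medians were -0.218 for the members and -0.114 for all peaks, and 7 members were called higher and 182 lower. The share of all peaks called in that setting is not given here, so these calls are no result about the members in particular.

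The 10 members with the highest lowest-cluster levels did not pass in white adipocytes with either treatment. Fbxl19 was at 69.8, 91.5 and 74.1 CPM in white adipocytes at day 0, at 52.8, 57.2 and 64.5 CPM in the cold and at 47.7, 57.4 and 68.9 CPM with CL. By CPM without TMM factors all treated mice were below day 0. The log2 fold changes were -0.38 (SE 0.15, edgeR adjusted p = 0.219) and -0.39 (SE 0.15, edgeR adjusted p = 0.109). Stub1 was at 65.9, 76.8 and 61.4 CPM at day 0, 52.8, 64.3 and 74.4 CPM in the cold and 44.8, 54.7 and 67.9 CPM with CL, overlapping throughout. The n-TPagg2 peak was at 83.3, 50.2 and 43.9 CPM at day 0, 34.8, 56.4 and 86.7 CPM in the cold and 40.0, 58.3 and 76.6 CPM with CL, and all 3 ranges overlapped.

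Set against cold directly, CL gave 18 called members in white adipocytes, 1 higher (0.0223%) and 17 lower (0.379%), where 1.19% of all peaks were called higher and 0.950% lower. The 18 became 66 without scaling, 3 with no filter and 0 with DESeq2. For these counts and those that follow, the share of all peaks called is not given. Leaving out mouse 3 of day1CL gave 0, mouse 1 of day7CL 6, mouse 3 of day7C 7, mouse 2 of day3CL 9 and mouse 1 of day1C 10, while leaving out the first or the third day 0 mouse, mouse 3 of day1C, mouse 1 of day3C, mouse 1 of day3CL or mouse 3 of day7CL gave 28 to 38. The member that was higher held the isoleucine tRNA gene n-TIaat7, nearest Hist1h2ah, at 14.9, 20.0 and 39.1 CPM in the cold (lowest, median, highest of 9) and 20.4, 32.2 and 45.3 CPM with CL. Its groups overlapped (log2 fold change 0.52, SE 0.14, edgeR adjusted p = 0.0149).

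Id3, which encodes an inhibitor of helix-loop-helix factors, was at 17.5, 32.0 and 53.9 CPM in the cold and 0, 23.5 and 30.0 CPM with CL (log2 fold change -0.63, SE 0.13, edgeR adjusted p = 0.00165). Socs7, a suppressor of cytokine signalling gene, was at 28.2, 33.7 and 48.2 CPM in the cold and 0, 22.0 and 34.0 CPM with CL (log2 fold change -0.60, SE 0.13, edgeR adjusted p = 0.00236). The shallowest CL library, mouse 1 of day1CL, held 23 white adipocyte nuclei and 44198 entries, so a value of 0 with CL can reflect low depth. Adnp, a gene for a zinc-finger chromatin protein, was at 28.2, 38.9 and 45.9 CPM in the cold and 19.8, 29.4 and 45.3 CPM with CL (log2 fold change -0.55, SE 0.12, edgeR adjusted p = 0.00333). All of these ranges overlapped, as did those of 16 of the 17 members that were lower. Of the 17, 7 were also lower with CL than at day 0. Both comparisons use the same CL mice and the overlap was not counted over all peaks, so the 7 are no separate support.

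B cells, with 21628 peaks tested and all 4482 members among them, had fewer calls. In the cold 0.0139% of peaks were called higher and 0.00925% lower, and 1 member (0.0223%) was higher and 0 lower. That member was Trnt1, which encodes the enzyme that adds the CCA end to tRNAs, at 47.1, 35.6 and 32.9 CPM at day 0 and 54.0, 62.9 and 78.7 CPM in the cold. All 9 cold mice were above day 0 (log2 fold change 0.78, SE 0.15, edgeR adjusted p = 0.00968). No member was called without the second or the third day 0 mouse, with no filter or with DESeq2. Leaving out any of 12 treated mice gave 2 or 3. Counts in B cells under other settings are also given without the share of all peaks called there. With CL 0.0509% of peaks were called higher and 0.0324% lower, and 0 members were higher and 4 (0.0892%) lower, a count that became 17 without scaling and 0 with no filter or with DESeq2.

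Bicral, a chromatin remodelling subunit gene, was at 95.2, 75.3 and 82.4 CPM at day 0 in B cells and 19.8, 53.0 and 67.7 CPM with CL (log2 fold change -0.62, SE 0.14, edgeR adjusted p = 0.0145). The shallowest CL library, mouse 3 of day1CL, held 66 B cell nuclei and 50392 entries, so the lowest CL values can rest on very few entries. Pank2, a pantothenate kinase gene of coenzyme A synthesis, was at 103, 102 and 107 CPM at day 0 and 50.2, 65.8 and 89.9 CPM with CL (log2 fold change -0.54, SE 0.12, edgeR adjusted p = 0.0350). Zfp668, a zinc-finger gene, was at 131, 132 and 111 CPM at day 0 and 59.5, 80.6 and 102 CPM with CL (log2 fold change -0.47, SE 0.11, edgeR adjusted p = 0.0401). The fourth, Pdik1l, a kinase gene named after its values were seen, had a log2 fold change of -0.56 (SE 0.14, edgeR adjusted p = 0.0484). In each of the 4 all CL mice were below all day 0 mice, but the 4 were picked by their p, so this is no separate support. The count was 0 without the first or the third day 0 mouse, mouse 1 of day1CL or mouse 1 of day7CL. It was 1 without mouse 3 of day7CL and 2 without mouse 1 of day3CL. CL against cold gave 0 calls over all peaks in B cells by edgeR and by DESeq2. An unadjusted edgeR p under 0.05 was reached by 325 of the 4482 members for cold against day 0, 555 for CL against day 0 and 407 for CL against cold. The count was not made for the other peaks, so these numbers are no result about the members in particular.

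In macrophages the depth left 351 members among 451 peaks tested, and 0% of peaks were called in any comparison by edgeR or DESeq2. At an unadjusted edgeR p under 0.05 there were 18, 14 and 17 of the 351 members for cold against day 0, CL against day 0 and CL against cold. That is near the share such a threshold passes where no level differs, and the count was not made for the other peaks. The 351 passed through their level in these mice and are not a sample of all members.

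The members as a whole took a somewhat smaller part of the entries in treated mice. In white adipocytes it was 17.4%, 15.9% and 15.1% in the day 0 mice (mean 16.1%, SD 1.15, n = 3) and 12.5%, 14.4% and 16.7% (lowest, median, highest) in the 18 treated mice (mean 14.5%, SD 1.03), and 14 of the 18 were below all day 0 mice. The difference was -1.61 percentage points (exact two-sided permutation test over mice, p = 0.0218, adjusted over 3 cell types p = 0.0654). Split by treatment, which was not tested, the share was 13.9%, 14.5% and 16.7% in the cold (lowest, median, highest). With CL it was 12.5%, 14.2% and 14.8%, and all 9 CL mice were below day 0. In B cells it was 29.9%, 29.2% and 28.3% at day 0 and 25.3%, 27.8% and 30.5% in treated mice, 13 of 18 below all day 0 mice, a difference of -1.39 points (exact permutation p = 0.0767, adjusted p = 0.0767). In macrophages it was 24.0%, 23.9% and 22.8% at day 0 and 20.2%, 22.3% and 24.5% in treated mice, 13 of 18 below, a difference of -1.34 points (exact permutation p = 0.0617, adjusted p = 0.0767). None of the 3 passed 0.05 after adjustment, and the smallest p this design allows is 7.52e-04.

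Depth differed between mice beside this result. The median white adipocyte nucleus had 1342 to 2695 entries in the day 0 mice and 1358 to 6755 in the treated mice. Limited to nuclei with at least 2000 entries the differences were -1.53, -1.06 and -1.23 points in white adipocytes, B cells and macrophages, and limited to members near a coding start they were -1.54, -1.30 and -1.21 points. The part that depth plays in what remains was not tested.

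**Figure D5:**
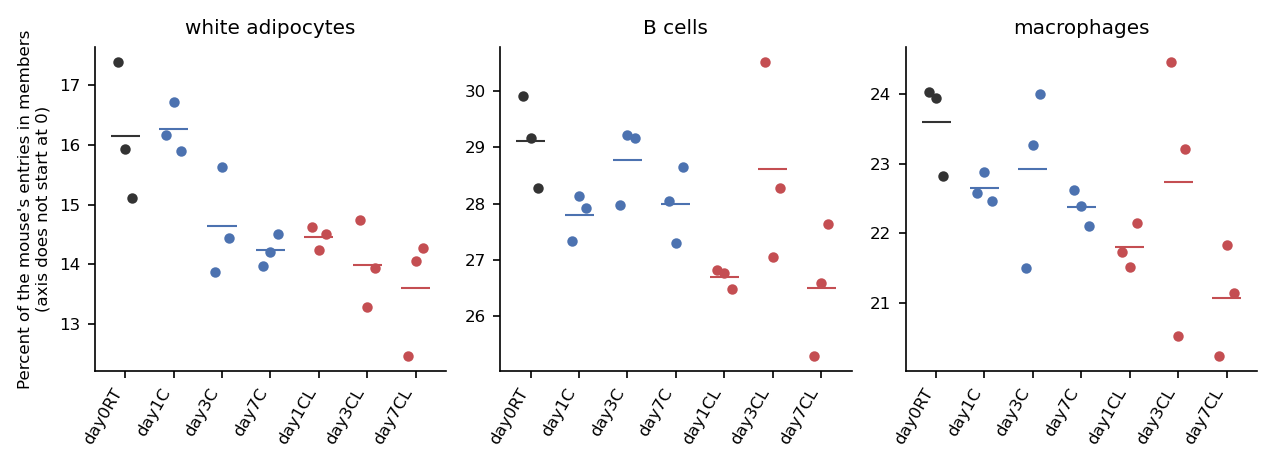
Percent of each mouse's entries that fell in the members (vertical axes, which do not start at 0) by group, with a point per mouse and a line at the mean of 3 mice, in white adipocytes, B cells and macrophages. Day 0 white adipocytes lie between 15.1% and 17.4% and CL-treated ones between 12.5% and 14.8%. In white adipocytes the CL points all lie below day 0, and the cold points, from 13.9% to 16.7%, overlap it. In B cells and macrophages the points of both treatments overlap day 0.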

How the data were processed

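Per the study's methods, the authors merged 2 sequencing runs, aligned reads to mm10 with Bowtie2, kept high mapping quality, removed duplicates, mitochondrial reads and Scrublet doublets, called peaks with MACS2 in each cluster and merged them, and annotated 12 clusters with Signac. The submitters' processing notes name Bowtie2, SAMtools, Signac and MACS2 without versions. The deposited values were counts in binary form: 1 for a nucleus with reads in a peak. No reads were aligned and no peaks called again here.

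CPM was computed per cluster over pooled nuclei and, for single mice, over the mouse's entries in the cluster without TMM factors. Peaks were placed against GENCODE vM21 transcript starts and RefSeq tRNA genes of GRCm38.p6, and named by the nearest protein-coding start. All tRNA and motif sequences are from the RefSeq genome. Entries were summed per mouse (at least 10 nuclei) and tested with edgeR 4.0.16 (TMM factors, filterByExpr, quasi-likelihood test, 7 groups in 1 fit, adjusted p under 0.05). DESeq2 1.42.0, no scaling, no filter, a replicate block and leaving out each mouse were alternatives. Shares of entries were compared by an exact permutation test over mice. Scripts were tested on simulated data. The mice are separate animals, and the tests set differences between groups against the spread between mice.

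The members and gene lists were chosen with earlier results of these data known. Members were named by rank: the 10 highest by lowest-cluster CPM, the 5 flattest with at least 50 entries in every cluster, the 5 highest distal ones, the 3 peaks on each side of the 2 thresholds, the 3 called with the smallest p per comparison and direction, and up to 3 per gene list, with all genes of a list where 5 or fewer lacked a member. The study states 3 independent batches of snATAC-seq without tying them to mouse numbers or days. A batch that set day 0 apart from the treated mice could not be told apart from treatment. The numbers were not taken as pairs, since same-numbered mice of different groups had a median correlation of deviations of 0.00 in each of the 3 cell types. The labels give the cold as 6.5 °C, which the text uses. Depth was 1340376 to 6916698 entries per mouse.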

Additional observations from a re-analysis of the deposited data

Results flagged for a closer look

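Members whose response differed between CL-316,243 and cold in white adipocytes are listed because the difference between the treatments was itself tested, with edgeR's quasi-likelihood test over all peaks. There was 1 member (0.0223%) higher with CL and there were 17 (0.379%) lower. Of all peaks tested 1.19% were called higher and 0.950% lower, so members were called less often than peaks at large. The log2 fold changes of CL against cold were 0.52 for the peak nearest Hist1h2ah, -0.63 for Id3, -0.60 for Socs7 and -0.55 for Adnp. The 9 CL and 9 cold mice overlapped at each of the 4, and 0 members were called without mouse 3 of day1CL. The cause was not tested.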

How the results depend on the processing

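The number of members was 5836 at 15 CPM, 1817 at 30 CPM, 3947 under 3 times and 4548 under 5 times, 4287 to 4509 without each group, 4201 from the mean of mice and 4769 on the unscaled share of nuclei, a choice made after seeing the data. Members called in white adipocytes, 6 for cold, 67 for CL and 18 for CL against cold, became 0, 5 and 3 with no filter and 0, 1 and 0 with DESeq2. Without scaling the last 2 became 189 and 66. Counts under other settings are given without the share of all peaks called there. B cell counts of 1 (cold) and 4 (CL) became 2 and 17 without scaling, and 0 with no filter or DESeq2. With the replicate block they were 3 for cold in white adipocytes, 68 for CL and 26 for CL against cold, and 3 and 3 in B cells. In macrophages and for CL against cold in B cells the block, like every other setting, gave 0. Leaving out each mouse gave 1 to 6, 14 to 97 and 0 to 38 in white adipocytes and 0 to 3 and 0 to 5 in B cells. The share differences ranged from -2.13 to -0.988 in white adipocytes, -1.81 to -0.992 in B cells and -1.73 to -1.13 in macrophages, and without mouse 1 of day3CL the exact permutation test's adjusted p was 0.0263 in all 3. In white adipocytes it was also 0.0474 without mouse 3 of day 0, 0.0421 without mouse 1 of day1C and 0.0211 without mouse 2 of day1C. The cause was not tested. Of the counts and differences under all alternatives, 241 stayed within 1.5 times or on their side of the threshold, 63 moved and 6 newly passed. The 241 include the comparisons that gave 0 in every setting, which could hardly move. Of the 21 fits that left out a mouse, the white adipocyte counts stayed in 11 for cold, 16 for CL and 10 for CL against cold. The B cell counts stayed in 7 for cold and 15 for CL. Shares near a start were 93.8%, 91.6% and 86.6% under other definitions. Depth limits macrophages most, where 351 of 4482 members could be tested.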
